A study of Caenorhabditis elegans with 4 samples.

Results

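The 1461 regions described here are peaks of DPY-26 on the X chromosome of Caenorhabditis elegans embryos that lie beside replicated binding sites without touching them. They come from the 9008 X peaks of a series-level peak list, of which they make up 16.2% (Wilson 95% interval 15.5% to 17.0%). Each overlaps no peak of ChIP replicate 1 but overlaps, by at least 1 bp, a peak of ChIP replicate 2 that itself overlaps a replicate 1 peak. Such a replicate 2 peak is called a shared domain below, and its replicate 1 peaks are called its sites. Peaks were chosen by their presence or absence in lists made from the same libraries, so all scores, widths and distances are given as a description and no test was run on them.

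The 4 samples were 2 ChIP libraries and 2 input DNA libraries from mixed-stage embryos of the wild-type strain N2, grown at 20 °C as a population of males and hermaphrodites. The embryos were fixed in 2% formaldehyde, and a rabbit polyclonal antibody against DPY-26 was used for immunoprecipitation. Peak lists of the ChIP libraries and the series-level list were analysed. Replicate 1 listed 1235 X peaks, replicate 2 listed 2542 and the series-level list 9008. Input peak lists were not analysed here, the sequencing depth behind the peaks is unknown, and the labels do not state if separate cultures were used for the ChIP replicates.

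DPY-26 is a subunit of condensin, a ring-shaped complex that folds chromosomes. In C. elegans a condensin that contains DPY-26 is part of the dosage compensation complex, which binds both X chromosomes of hermaphrodites and lowers their transcription. The complex is recruited at discrete X elements and is known to spread from them to other sites along the X, many of them at promoters. The deposited lists give no factor other than DPY-26 and pair no peak with a gene. Peaks are therefore named by position on WormBase release WS220, as the file headers give it, without genes or sequence.

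Flanking peaks were weak and narrow next to the replicated peaks of the X. Their median score, the authors' value per peak in the series-level list, was 6.53 with quartiles of 4.22 and 11.08. The 1094 replicated X peaks, which overlapped a site and its shared domain, had a median of 51.1 with quartiles of 30.3 and 81.5. The middle ranges of the 2 classes do not overlap, although the highest flanking peak, at 68.86, lay above the replicated median. Of the flanking peaks, 113 (7.73%) scored 20 or more, against 948 (86.7%) of the replicated ones. At the low end 511 flanking peaks (35.0%) scored under 5, and the lowest equalled 1.30, the smallest X score of the list. The median flanking width was 294 bp, with quartiles of 203 bp and 438 bp, against 668 bp for replicated peaks. Width and score of flanking peaks went together, with Spearman's rho of 0.62 across the 1461 peaks, which share libraries and peak caller.

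The medians of the remaining large classes of X peaks bracketed them. The 3616 peaks in replicate 2 domains that held no replicate 1 site had a median score of 7.48 and a median width of 330 bp. The 2749 X peaks found in neither replicate had medians of 5.07 and 230 bp. Flanking peaks lay between these, and 232 of them (15.9%) exceeded 14.1, the upper quartile of all X peaks. Against the peaks of domains without a site, the ratio of median scores was 0.87, but that class includes the highest peak of each domain, whereas the highest peak of a shared domain was usually the site itself. Without the highest peak of each such domain, a comparison chosen after the data were seen, the remaining 1987 peaks had a median of 5.14, and the ratio was 1.27.

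**Figure D1:**
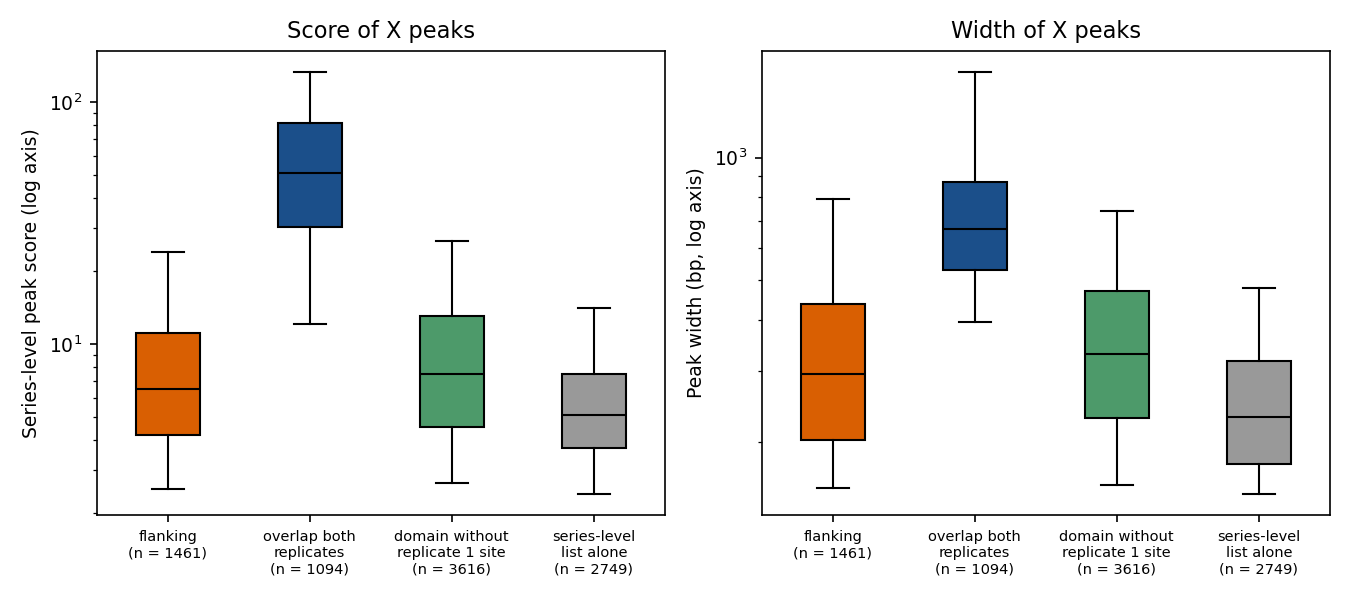
Series-level peak score (left) and peak width in bp (right) of 4 classes of X peaks, both on log axes. Boxes show quartiles with the median as a line, and whiskers run from the 5th to the 95th percentile. Flanking peaks, with a median score of 6.53, sit far below the peaks that overlap both replicates, at 51.1, and near those of domains without a replicate 1 site, at 7.48.

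The flanking peaks lay in 539 of the 904 shared domains, or 59.6% (Wilson 95% interval 56.4% to 62.8%). Of these domains, 236 held 1 flanking peak, 112 held 2, 68 held 3 and 123 held 4 or more. The last group contained 797 of the 1461 peaks (54.6%), so the peaks of 1 domain are not independent of each other. None touched more than 1 replicate 2 peak, and 19 (1.30%) crossed the edge of their domain. Domains with flanking peaks had a median width of 3908 bp, against 1736 bp for shared domains without them, and a median replicate 2 score of 714, against 525. The highest replicated series-level score per domain had a median of 55.1 with flanking peaks and 61.7 without. By replicate 2 score, in contrast, flanking peaks were present in 83.3% of the 66 shared domains above 2000, where the median of that highest replicated score was 131.8. They were present in 42.4% of the 132 domains of up to 250, where it was 26.4.

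Room inside the domain went with the number of flanking peaks. At least 1 was present in 11.4% of shared domains of up to 2000 bp, 67.3% of those over 2000 and up to 3000 bp, 82.3% of those up to 5000 bp, 96.4% of those up to 10000 bp and all 45 wider domains. Across the 904 domains the rho of number and width was 0.81, which the rule partly sets, since a peak needs space outside the site. Density was higher in wider domains as well. Domain edges lay a median of 475 to 494 bp beyond the last series-level peak, so peak-free edges take a larger part of narrow domains. How much of the rise in density this accounts for was not tested. Per kb of free sequence, that is domain sequence in neither a replicate 1 peak nor a replicated series-level peak, flanking peaks numbered 0.117 in the narrowest class, 0.540 in domains over 3000 and up to 5000 bp and 0.920 above 10000 bp. Domains without a site showed the same order once the highest peak of each was set aside, with 0.290, 0.661 and 0.867 of the lower peaks per kb of the sequence outside the highest peak. With the highest peaks counted, their densities were 0.834, 0.845 and 0.915 per kb. Over all domains flanking peaks covered 21.6% of the free sequence. The lower peaks of domains without a site covered 16.8% of the sequence outside the highest peaks, and peaks found in neither replicate covered 7.44% of the X outside the peaks of either replicate. The first 2 shares pool domains of unlike width, with medians of 2785.5 bp for shared domains and 2143 bp for those without a site. Within width classes, flanking peaks were fewer per kb than the lower peaks in each class up to 10000 bp. They were more numerous only above 10000 bp, where the lower peaks were 52 in 5 domains, against 380 flanking peaks in 45 domains.

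**Figure D2:**
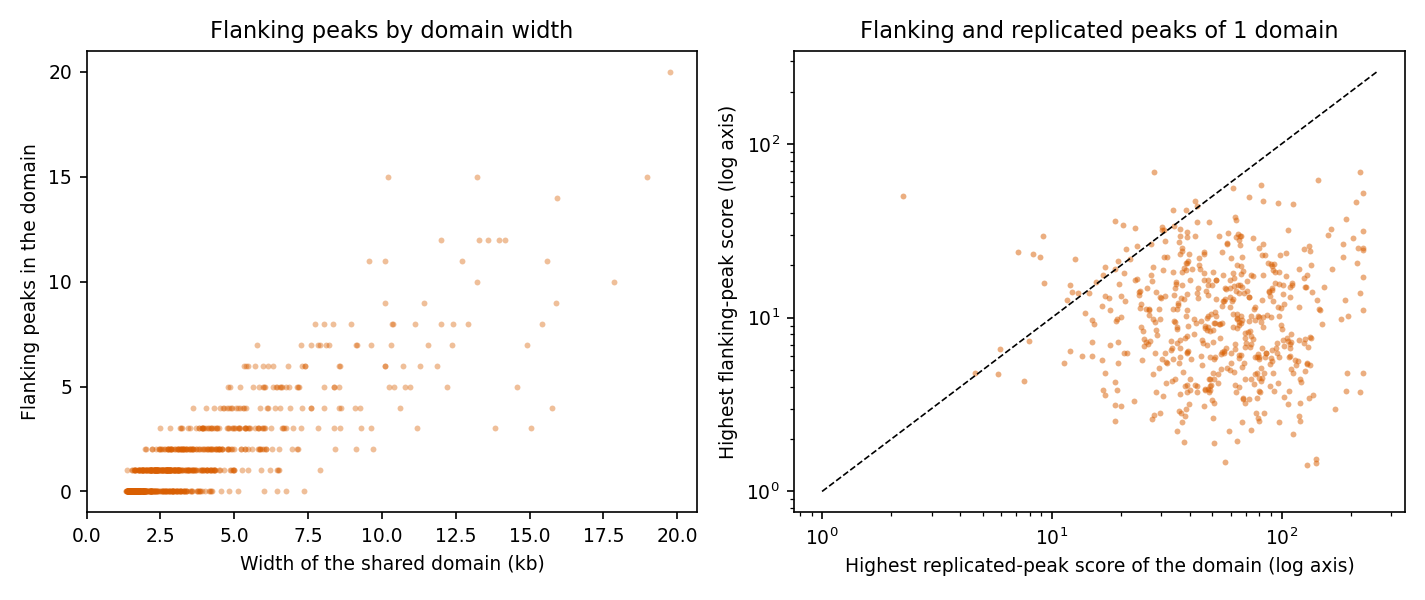
Left, number of flanking peaks against width in kb for the 904 shared domains. Right, the highest flanking-peak score against the highest replicated-peak score of the same domain, both series-level scores on log axes, for the 539 domains with flanking peaks. The dashed line marks equal scores, and 31 domains lie above it.

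Flanking peaks lay on either side of their sites, at distances bounded by the width of the domain. The distance from a flanking peak to the nearest site of its domain, measured between their nearest ends, had a median of 1050 bp with quartiles of 542 bp and 2124 bp, and it ran from 2 bp to 11283 bp. Within 1000 bp of a site lay 706 peaks (48.3%, Wilson 95% interval 45.8% to 50.9%), against 53.9% of the free sequence. The 2 shares are unlike measures, since peaks were placed by their nearest end and sequence base by base. The rule also removes any peak that touches a site, so the shares cannot show if the peaks favour or avoid the vicinity of sites. On the X as drawn in the files, 719 lay left of their nearest site with a median score of 6.71, and 742 lay right of it with a median of 6.23. A group of 161 peaks lay between 2 sites of 1 domain, with a median score of 7.25, against 6.30 for the others. Flanking peaks occurred on both outer sides of the sites in 147 shared domains, which is 48.5% of the 303 domains that held at least 2.

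The score of a flanking peak did not follow its distance from the site. From 1 to 250 bp, 125 peaks had a median score of 6.31. The next classes gave 6.09 for 202 peaks over 250 and up to 500 bp away, 6.69 for 379 peaks up to 1000 bp away and 7.05 for 362 peaks up to 2000 bp away. Beyond that the median was 6.26 for 333 peaks up to 5000 bp away and 6.92 for 60 peaks farther away. The 95% order-statistic intervals of the 6 medians share the range from 6.26 to 6.79, and rho of score and distance was 0.01 over the 1461 peaks. Peaks of domains without a site, the highest included, had medians of 7.54, 7.43 and 7.51 at over 1000 and up to 2000 bp, up to 5000 bp and beyond 5000 bp from the nearest replicate 1 peak of the X. Coverage did differ with distance. Flanking peaks covered 3.51% of the free sequence within 250 bp of a site, 10.0% over 250 and up to 500 bp away, 24.0% up to 1000 bp and 29.0% up to 2000 bp. It was 31.4% up to 5000 bp and 32.4% beyond. The low values near the site follow in part from the rule, which removes any peak that reaches into a site. Distance is also mixed with the length of the stretch from site to domain edge. In domains with a single site, 754 such stretches over 500 and up to 1000 bp long held 60 flanking peaks. The 223 stretches over 2000 and up to 5000 bp long held 425. Coverage by distance was not separated from this length.

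**Figure D3:**
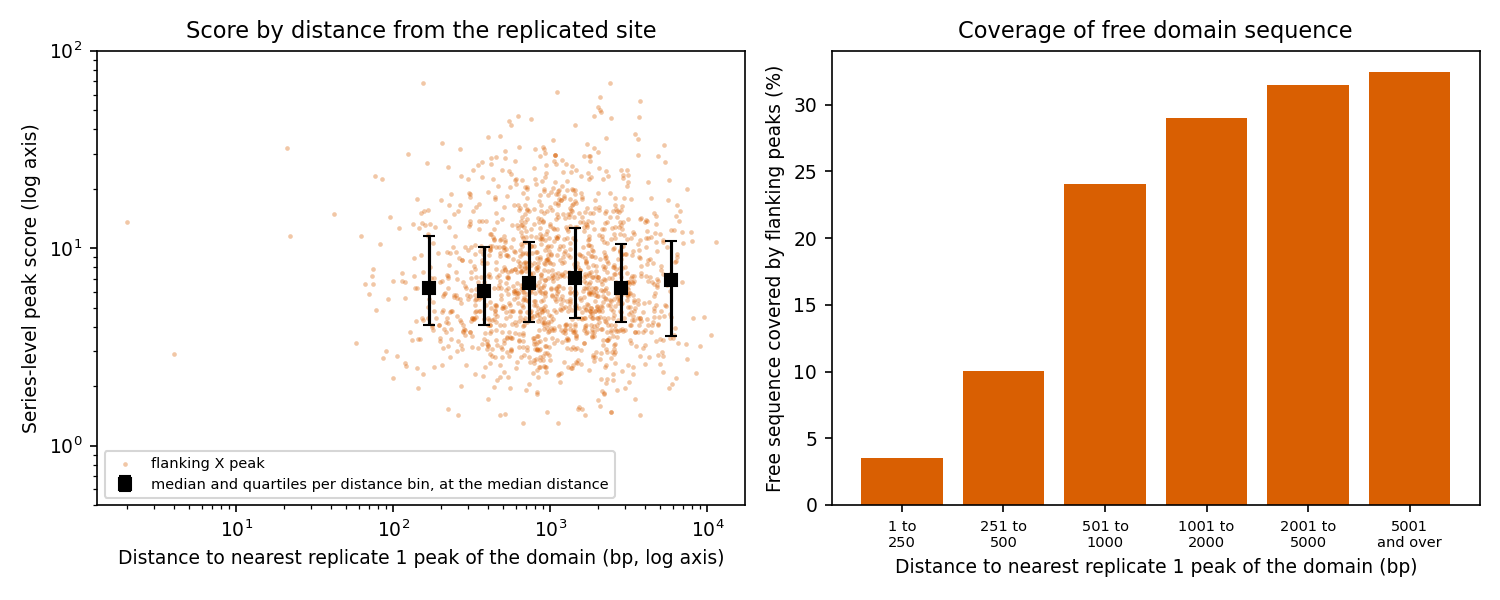
Left, series-level score of each of the 1461 flanking peaks against the distance in bp to the nearest replicate 1 peak of its domain, on log axes, with the median and quartiles of 6 distance classes as squares and bars. Right, percent of free domain sequence covered by flanking peaks in the same classes. The medians stay between 6.09 and 7.05 while coverage runs from 3.51% to 32.4%.

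Within the arms of single domains, scores also did not fall with distance from the site. The 744 shared domains with a single site gave 1487 arms, an arm being the stretch from the site to the domain edge. Flanking peaks occurred on 514 arms, with a median length of 1808 bp, while the empty arms had a median of 585 bp. Among 754 arms over 500 and up to 1000 bp long, 7.82% carried a flanking peak, against 73.6% of 318 arms of up to 2000 bp and all 27 arms longer than 5000 bp. On the 107 arms with exactly 2 flanking peaks, the one nearer to the site scored higher on 44 and lower on 63. On the 85 arms with 3 or more, the nearest was the highest on 21 and the farthest on 26. The outermost flanking peak of an arm ended a median of 475 bp before the domain edge, with quartiles of 398 bp and 560 bp. The same measure was 494 bp from the replicated peak on empty arms and 480 bp from the outermost peak in domains without a site. Domain edges thus lay at a similar distance beyond the last series-level peak, whatever its class.

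Scores of flanking peaks also did not follow the strength of the site. Across the 1461 peaks, rho of their score was -0.01 with the score of the nearest replicate 1 peak, 0.01 with the highest replicated series-level score of the domain and 0.06 with the replicate 2 score of the domain. By replicate 2 score, the median flanking score was 6.53 in domains of up to 250, 6.30 over 250 and up to 500, 6.48 up to 1000, 6.25 up to 2000 and 7.22 above that. Over the same classes the median of the highest replicated peak per domain ran from 26.4 to 131.8. In domains without a site, the peaks other than the highest had medians of 4.70, 5.52, 6.005 and 6.18 in the 4 lower classes. These medians came from 1063, 547, 328 and 49 peaks, the last in only 11 domains. The gap between flanking peaks and these peaks was therefore widest where replicate 2 was weak. Per domain, the highest flanking score was a median of 0.18 times the highest replicated score, with quartiles of 0.090 and 0.376.

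In 31 of the 539 domains (5.75%) the highest flanking peak outscored every replicated peak. The sites of these domains were weak in replicate 1, with a median of 73.6 for the highest replicate 1 score per domain, against 205.8 in the other domains with flanking peaks. The widest margin was at 15590480 to 15590779, where a flanking peak of 300 bp scored 50.19 while the replicated peak of its domain scored 2.24. The site, 2071 bp away, had a replicate 1 score of 50.10, the lowest on the X, and the domain scored 442.84 in replicate 2. The other 5 flanking peaks of the domain scored between 1.47 and 9.22. At 10438952 to 10439385 a flanking peak scored 23.94 against 7.10 for the replicated peak, and at 4550868 to 4551325 one scored 29.41 against 9.15, with replicate 1 scores of 54.35 and 85.23 at those sites. In such domains the position that replicate 1 marked was not the highest of the series-level list.

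The strongest flanking peaks ranked 385 to 671 among the 9008 X peaks. The highest, at 16218154 to 16218884, was 731 bp wide and scored 68.86. It began 155 bp to the right of a replicate 1 peak that scored 105.39, within a domain of 2204 bp that scored 731.89 in replicate 2, and the replicated peak beside it scored 27.96. A second peak, at 1347951 to 1348823, scored 68.84. Its domain spanned 12897 bp, scored 3100 in replicate 2 and held 8 flanking peaks and 2 sites, the nearer with a replicate 1 score of 2692.7. The other 7 flanking peaks there scored between 1.83 and 12.75, so 1 of the 8 stood apart from the rest.

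The peaks that ranked next lay in domains whose highest replicated peaks scored 61.44 to 226.42. Across the 539 domains, however, rho of the highest flanking score with the highest replicated score was -0.02. At 1438678 to 1440268 a peak of 1591 bp scored 61.97, in a domain of 8579 bp whose replicated peak scored 143.99. The same domain held the widest flanking peak of all, 2927 bp at 1440656 to 1443582 with a score of 24.87, and another at 1436064 to 1436399 with 27.53. All 3 flanking peaks of this domain thus lay above the upper quartile of the X. At 4619427 to 4620529 a peak scored 58.06 beside a replicated peak of 80.96, and at 10390995 to 10391673 one scored 55.74 beside 61.44. The domain around 10390995 held 12 flanking peaks, of which those at 10392207 to 10392501 and 10394060 to 10394613 scored 22.54 and 25.32 on the same side. The remaining 9 scored between 1.83 and 9.41. At 11932423 to 11932796 a peak of 374 bp scored 52.05 at 2000 bp from a site. Its domain had 4 sites and a replicated peak at 226.42, the highest score of the X.

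The last of the 10 strongest lay at 1853382 to 1853963 (score 49.22), 1521939 to 1522752 (score 46.86) and 3788455 to 3788881 (score 46.71). Their replicate 2 domains scored 692.57, 1448.57 and 982.97. Only the last of these outscored the replicated peak of its domain, which had 41.83. Of the 10 strongest, 9 lay more than 500 bp from their nearest site, the exception being the highest. Most flanking peaks of any score lay that far away, since the lower quartile of the distance over all of them was 542 bp.

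The domain with the most flanking peaks spanned 19751 bp, from 9097774 to 9117524, and was the widest replicate 2 peak of the X. It scored only 215.0 in replicate 2 and held 3 sites with replicate 1 scores of 86.7 to 450.7. Its 20 flanking peaks scored 3.11 to 19.93 with a median of 6.86, and 16 of them lay between sites. A domain at 2054176 to 2064365 held 15 flanking peaks around a single site with a replicate 1 score of 104.1. The flanking peaks there scored 2.66 to 23.18, a range that includes the 8.25 of the replicated peak. A domain at 9503588 to 9516821 also held 15, with scores of 2.30 to 22.1 and a median of 7.04, although its replicate 2 score of 54.2 was the lowest of all shared domains. Its 2 replicated peaks scored 43.8 and 33.3. Medians of the 3 domains lay close to the 6.53 of all flanking peaks.

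**Figure D4:**
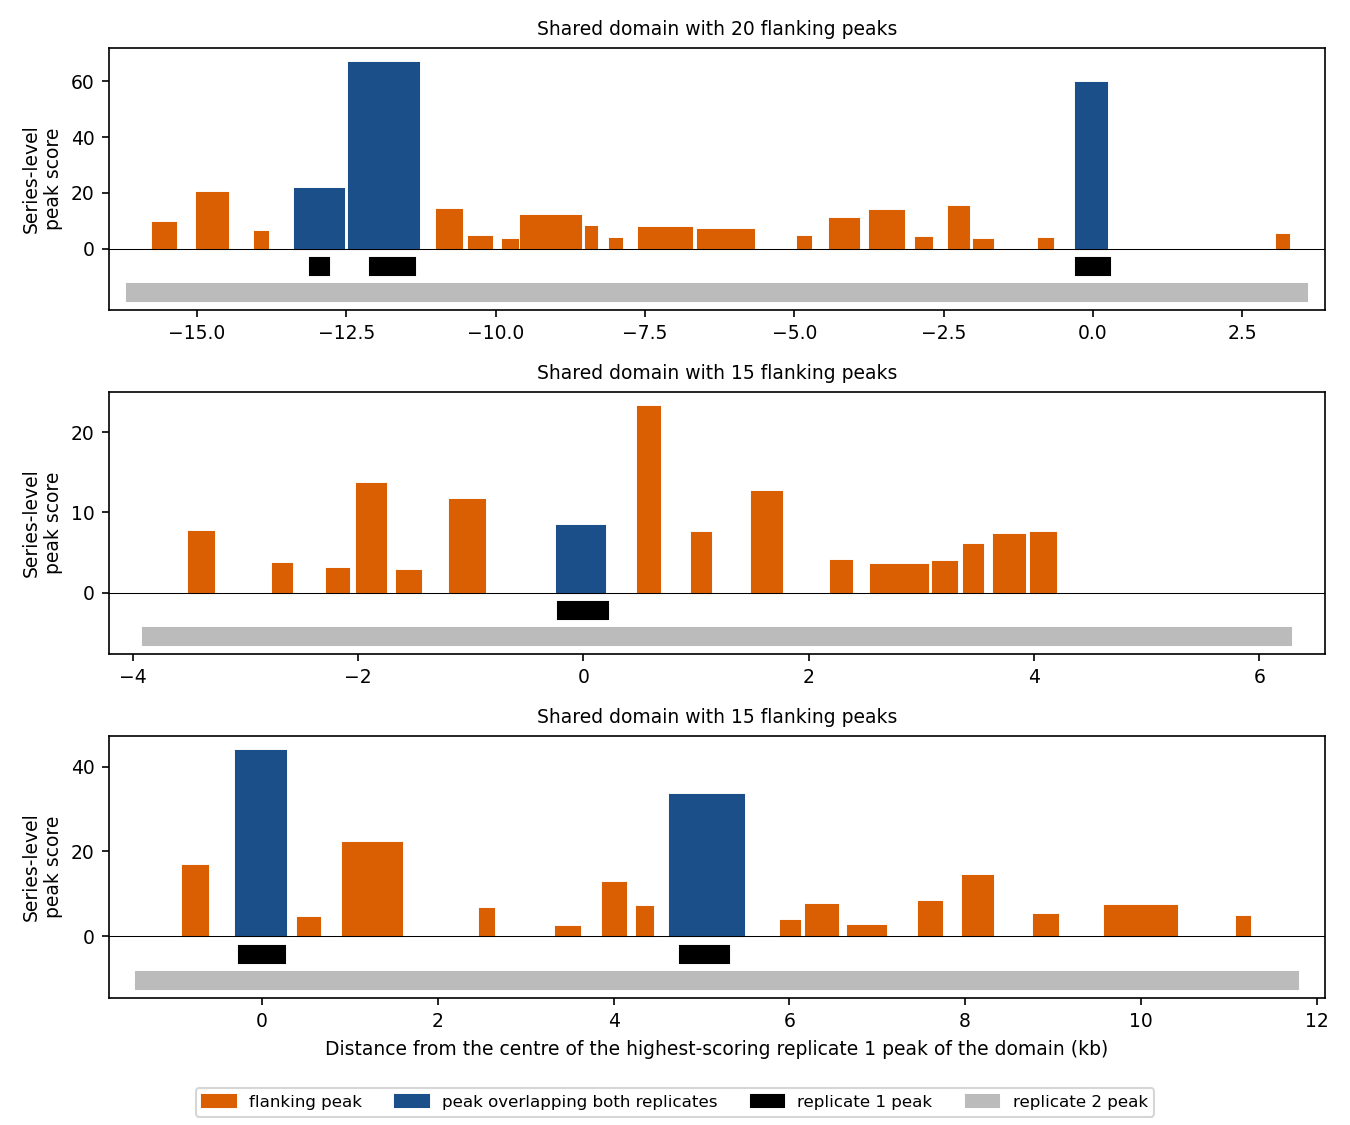
Maps of the 3 shared domains with the most flanking peaks, with distance in kb from the centre of the domain's highest-scoring replicate 1 peak on the x axis and series-level peak score as bar height. Bars are drawn to their width, and bars under the axis mark replicate 1 and replicate 2 peaks. In the middle map some flanking peaks, which reach 23.18, stand higher than the replicated peak at 8.25.

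Some peaks owe their class to a few bases. The flanking peak nearest to a site, at 5209303 to 5210135, ended 2 bp before a replicate 1 peak and scored 13.49, and the next, at 4146432 to 4146612, lay 4 bp away and scored 2.91. Just outside the rule, X peaks at 2922616 to 2923121 and 5689397 to 5689772 overlapped a replicate 1 peak by 3 bp and 6 bp and scored 7.89 and 6.03. The 5 peaks with the smallest such overlap, of up to 25 bp, scored 4.08 to 8.13. Of all flanking peaks 22 lay within 100 bp of a site. The farthest, at 11485862 to 11486610, lay 11283 bp from its site and scored 10.74. The class as a whole rests on the width of replicate 2 peaks, whose median on the X was 2317 bp against 488 bp in replicate 1. With replicate 2 peaks cut to 488 bp about their midpoints, a choice made after the data were seen, 39 peaks met the rule. Domains that short leave little room beside a site, so a large drop was set in advance by the cut.

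The rule asks for a replicate 1 peak in the domain of a flanking peak, not for a second series-level peak. All 539 domains with flanking peaks held a replicated series-level peak as well. This was not particular to them. In domains with a single site, a replicated peak was also measured on 973 empty arms, which include arms of domains without flanking peaks. The gap to the nearest other series-level peak had a median of 305 bp, with quartiles of 133 bp and 564 bp, against 612 bp for replicated peaks, 286 bp for the 88 X peaks that overlapped a replicate 1 peak but no shared domain, 462 bp for peaks of domains without a site and 1007 bp for peaks found in neither replicate. A replicated peak was the direct neighbour of 826 flanking peaks (56.5%), and another flanking peak was that of 1069, with some counted in both. Within 100 bp of another peak lay 232 flanking peaks (15.9%). Joining series-level peaks within 100 bp left 1304 flanking regions.

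Along the X the flanking peaks were spread from end to end. They numbered 83.5 ± 20.6 per Mb (SD over 17 full bins), from 32 in the leftmost bin to 117 in bin 10. Their share of the X peaks of a bin ran from 9.09% to 22.9%, with the same bins at the low and the high end. The leftmost bin held 40 shared domains and bin 10 held 52, and the rank correlation of flanking peaks with shared domains per bin was 0.12 over the 17 bins. Their median score per bin stayed between 5.55 and 8.16.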

How the data were processed

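DPY-26 ChIP-seq of mixed-stage N2 embryos was used as deposited. Reads were aligned with BWA to ce10, per the submitters' processing notes, and peaks came from MACS in the replicate lists and MACS v2 in the series-level list, on WormBase WS220, per the file headers and source column. The score of each peak is the authors' deposited value. The sources used here do not give its scale, the filters, the use of input as control or any pooling of replicates. Sizes of scores were therefore compared only within a list. Scores of different lists were related by rank, by classes of replicate 2 score and by cuts on replicate scores. Medians of replicate scores were also compared between groups of domains set by series-level peaks. Read depth per sample is unknown.

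Members were found with Python 3.11.15, numpy 2.4.6 and pandas 2.3.3 and checked with bedtools 2.31.1, which gave the same 1461. Intervals came from scipy 1.17.1, and figures from matplotlib 3.10.9. Wilson and order-statistic 95% intervals cover counting error alone and take peaks to be independent. The classification was tested on simulated lists. The members, comparison classes and lists were chosen with earlier results of these data known. Named regions are the 10 highest members, the widest, the nearest and farthest from a site, the 3 fullest domains and 5 peaks just outside the rule. Regions named as outscoring their site or as neighbours were added after their values were seen. No gene annotation or genome of the files' build was used here.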

Additional observations from a re-analysis of the deposited data

How the results depend on the processing

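Of 86 alternative values, 59 stayed within the 95% interval of the median or share, or within 1.5 times a count. No ratio of medians crossed 1 in these. Keeping series-level scores of 5 or more gave 950 flanking peaks, 1.05 per shared domain, a median score of 9.23, a width of 360.5 bp, 11.2% of domains with peaks on both sides and a ratio to replicated peaks of 0.198, against 1461, 1.62, 6.53, 294 bp, 16.3% and 0.136. This cut removes low scores by construction. Ratios to replicated peaks in this section use only the replicated peaks of domains with flanking peaks. Resizing replicate 2 peaks gave 39 peaks, 0.070 per domain, a median score of 5.89, a median distance of 223 bp, 100% within 1000 bp, 0% of domains with peaks on both sides, and ratios of 0.082 to replicated peaks and 0.631 to peaks of domains without a site. The low count, the distances and the 100% follow from the narrower domains, and the cause of the score and ratio shifts was not tested. Keeping 200 bp from sites gave a median distance of 1122 bp and 45.2% within 1000 bp. Without replicate 2 domains over 10000 bp these were 888 bp and 55.6%, and 13.5% of domains had peaks on both sides. Merging peaks within 100 bp gave a width of 312 bp. Replicate 1 scores of 100 or more, a cut that drops the weaker sites, gave a ratio to replicated peaks of 0.106. The median flanking score was 6.785 there, so the ratio fell through a higher median of the replicated peaks, and the cause was not tested further. Leaving out ChIP replicate 1 from the rule gave 6171 peaks, with a median score of 8.72 and a median width of 367 bp. Peaks that overlap a site are then no longer removed. Leaving out ChIP replicate 2 gave 7826 peaks, with a median score of 6.23 and a median width of 281 bp. No paired analysis was possible because the values come from no test and the files used here hold peak lists of 1 group only, the ChIP libraries. The depth behind the lists is unknown, so absence from replicate 1 means only that no peak passed its threshold.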
